A study of Mus musculus with 12 samples.

Results

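The effect of tumor material on macrophage gene expression was estimated over all 12 of the 12 mouse libraries in a single additive model. The 6 libraries of macrophages given tumor material were set against the 6 given none, and myelin (added or not) and the mn number of the library were further terms of the model. The cells were dTomato+ bone-marrow derived macrophages, sorted after ex vivo assays with dissociated brain tumor. The arm with tumor material held the groups Tumor without Myelin and Full Tumor (the latter also has myelin), and the arm without held Control and Myelin Alone. Every group comprised 3 libraries, numbered mn 957, 958 and 016. The meaning of mn is not explained in the labels, nor is what the Control macrophages were given, how long the cells were exposed, or which of the mouse glioma models PDG-Ink4a and PDG-p53 supplied the material. Age and strain are not stated either. Nothing in the labels says that the 3 numbers are separate animals, so p-values here measure the spread between these libraries, which may be technical.

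Library totals ran from 17071673 to 21689624 counts. Within a number, each tumor library has 1 partner with the same myelin state (Tumor without Myelin with Control, Full Tumor with Myelin Alone), which gives 6 pairs. Levels are CPM, counts scaled to the library total after adjustment by TMM factors. Log2 fold changes are those of tumor material over none, with an approximate standard error (SE), and a gene is called at an adjusted p below 0.05 in edgeR's quasi-likelihood test over the 13414 tested of 24728 listed genes. The sorted cells carried macrophage RNA: the summed level of 10 macrophage markers was 13400 to 15700 CPM without tumor material and 15200 to 18500 CPM with it, and was higher in 6 of 6 pairs. Libraries of number 016 stood apart from the others on the first principal component, which held 31.6% of the variance.

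Macrophages sense debris and foreign nucleic acids through scavenger, Fc, complement and Toll-like receptors. Type I interferon, made after nucleic-acid sensing, acts through a transcription factor complex that includes IRF9 and binds the interferon-stimulated response element (ISRE) of antiviral genes. Inside the cell, NRF2 drives antioxidant genes, ATF4 drives amino-acid synthesis genes under stress, and LXR receptors drive cholesterol export when sterol accumulates, as it does in phagocytes that take up myelin.

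With tumor material, macrophages carried more RNA of 7 of 8 tested MS4A membrane proteins, of the 3 C1q chains, of Siglec1, of 2 of 5 Fc gamma receptors, of 4 of 12 genes of Toll-like receptors and their partners and of 18 of 39 interferon-induced genes, the last with a median change of 0.00 in number 016. They carried less RNA of 6 of 20 antioxidant genes, of Atf4 and 8 of 29 genes known as its targets, and of Serpinb9 and Serpinb9b. In total 228 genes rose (1.70% of those tested) and 102 fell (0.760%), together 2.46%. The median change of the called genes was 0.77 among those that rose and -0.54 among those that fell, against -0.002 over all tested genes, and 80 of the genes that rose but 15 of those that fell changed by more than 1 on the log2 scale. Of the 330 called genes 319 were protein-coding, as were 11608 of all 13414 tested genes. The sign was the same within each of the 3 numbers for 323 called genes and in all 6 pairs for 290. Over all tested genes, 560 (4.17%) were higher and 402 (3.00%) lower in 6 of 6 pairs. For 82 called genes the 2 arms did not overlap, as for 108 of all tested genes (0.805%). The counts of shared sign and of arms without overlap are a description only, since the same libraries made the calls.

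The calls rest on comparing libraries within a number. Without the number in the model 18 genes rose and 1 fell, while the direction of all 330 genes stayed the same. Counts also dropped when a single number was left out: 59 rose and 26 fell without 957, and 48 and 8 without 958. Without 016, 237 rose and 44 fell. Leaving out single libraries lowered the total of 330 calls by more than 1.5 times for Control 957 (178), Tumor without Myelin 957 (155), Control 958 (198), Full Tumor 958 (209), Tumor without Myelin 958 (191) and Myelin Alone 958 (188). Of 122 called genes among those examined by name or list, 7 stayed called in all 25 alternative fits: Ms4a6b, Siglec1, Tgm2, C5ar1, Fcgr1, Gbp9 and Tlr1.

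**Figure D1:**
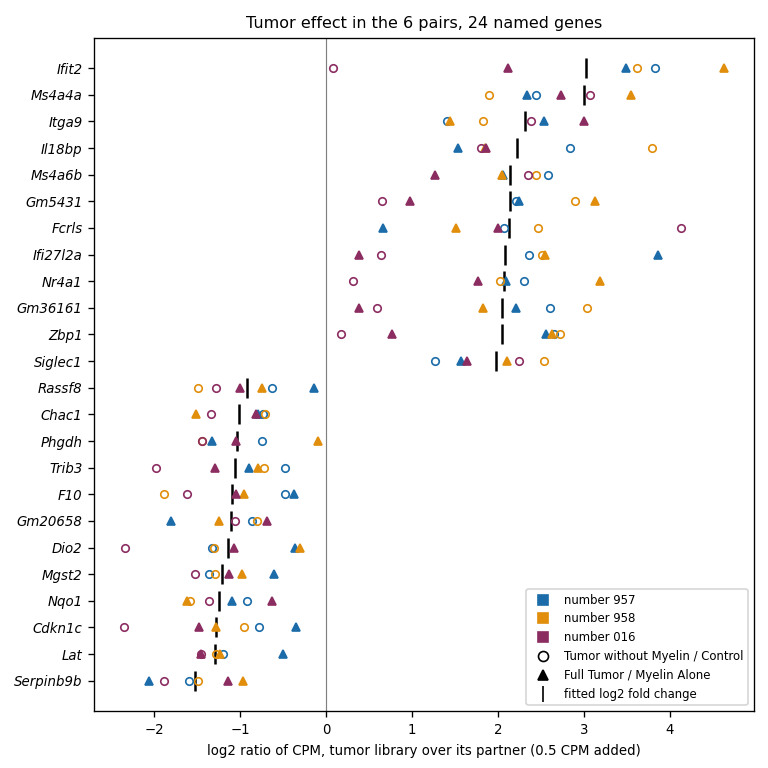
Log2 ratio of CPM (0.5 CPM added to both) in each of the 6 pairs, tumor library over its partner, for the 12 genes that rose most and the 12 that fell most among called genes of at least 10 CPM with the same direction in all pairs. Colors give the mn number, open circles the pairs without myelin, triangles the pairs with myelin, and black bars the fitted log2 fold change; the 016 points of Ifit2, Ifi27l2a and Zbp1 lie nearest 0.

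The MS4A family is a group of membrane-spanning proteins found on myeloid cells, whose genes sit together on chromosome 19. Of its 8 tested members 7 rose and 0 fell, with a median log2 fold change of 1.46 against -0.002 over all genes. Ms4a6b (ENSMUSG00000024677; mm10 chr19:11516512-11531256) ran from 14.4 to 41.3 CPM (median 27.9) without tumor material and from 59.4 to 212 CPM (median 131) with it. All 6 tumor libraries lay above all 6 others. Its log2 fold change was 2.14 ± 0.15 (SE, n = 6 against 6, edgeR adjusted p = 6.82e-05), with 2.33, 2.27 and 1.81 within numbers 957, 958 and 016. Ms4a4a (ENSMUSG00000101389; chr19:11375523-11392790) ranged over 0.245 to 4.39 CPM (median 2.49) without and 5.77 to 27.9 CPM (median 17.6) with tumor material, again with no overlap, a log2 fold change of 3.00 ± 0.29.

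The other called family members were Ms4a4c (3.03 ± 0.64), Ms4a6c (1.36 ± 0.12), Ms4a14 (0.95 ± 0.16), Ms4a6d (0.57 ± 0.11) and Ms4a7 (0.39 ± 0.09). Ms4a7, a macrophage marker, already had 694 to 1400 CPM without tumor material. Near-identical family members can share reads, and how the authors' counting treated such reads is not given in the sources used here. Leaving out 957 or 958 left 3 of the 7 calls each, and leaving out 016 left 7. In the plot of levels by library, the tumor libraries of number 958 were the highest for Ms4a6b, Siglec1, C1qa and Fcgr1.

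**Figure D2:**
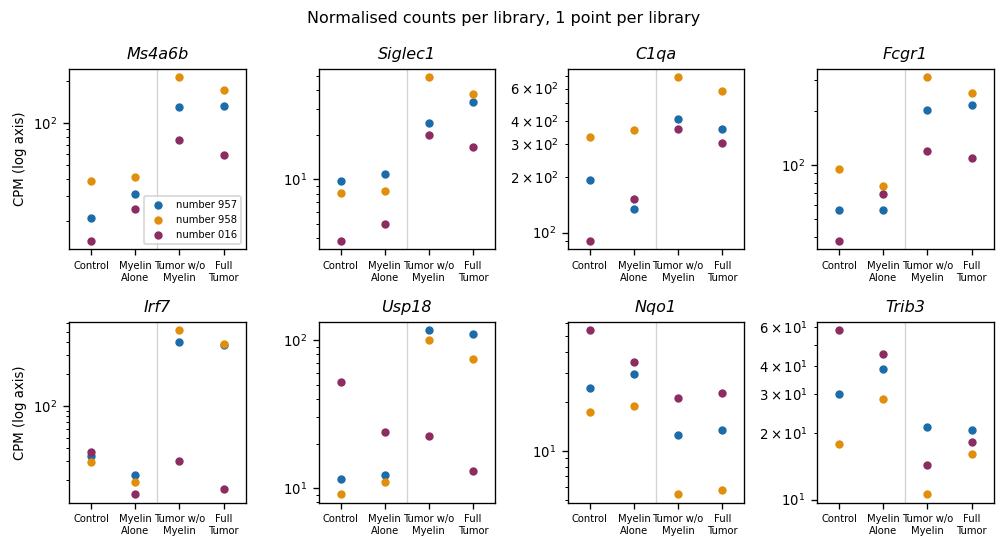
CPM on log axes in each of the 12 libraries for 8 genes, 1 point per library, by group and colored by mn number. Ms4a6b, Siglec1 and Fcgr1 are higher in all 6 tumor libraries than in the other 6, the tumor libraries of 957 and 958 lie above all others for Irf7 and Usp18, and Nqo1 and Trib3 are lower with tumor material in all pairs.

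Some receptors and opsonins for uptake rose as well. Of 11 tested genes of C1q and complement receptors 6 rose and 1 fell, with a median of 0.50. C1qa, which with C1qb and C1qc forms the C1q recognition molecule, ran from 89.7 to 356 CPM (median 172) without tumor material and from 306 to 693 CPM (median 387) with it. The arms overlapped at the 958 libraries without tumor material (329.7 and 356.5 CPM), and within pairs C1qa was higher in 6 of 6. Its log2 fold change was 1.20 ± 0.14, that of C1qb 0.85 ± 0.11 and that of C1qc 0.85 ± 0.11. The anaphylatoxin receptors C5ar1 (0.62 ± 0.08) and C3ar1 (0.44 ± 0.07) rose with no overlap of the arms, and properdin, Cfp (1.33 ± 0.20), which stabilizes the complement convertase, rose with overlap. Itgax, the alpha chain of complement receptor CR4 and a dendritic cell marker, fell by 0.59 on the log2 scale.

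Of the 5 tested Fc gamma receptor genes 2 rose, and the median of the list was 0.15. Fcgr1, the high-affinity receptor for IgG, ran from 37.6 to 95.0 CPM (median 62.7) without tumor material and from 110 to 311 CPM (median 210) with it, with no overlap of the arms and a log2 fold change of 1.58 ± 0.16 (edgeR adjusted p = 0.000339). Fcgr4, an activating receptor, rose by 0.73 ± 0.09. Siglec1, the sialic-acid receptor CD169 of tissue macrophages, was the 1 called member of 6 sialic-acid receptors, whose median change was -0.02. It went from 3.82 to 10.8 CPM (median 8.22) without to 16.6 to 49.1 CPM (median 28.5) with tumor material, with no overlap and a change of 1.97 ± 0.18. Among 21 scavenger and phagocytic receptors 5 rose and 0 fell, with a median of 0.54: the scavenger receptor Msr1 (0.62 ± 0.07), the integrin Itgav (0.69 ± 0.10), the TAM receptor Axl (0.59 ± 0.13), its ligand Gas6 (0.61 ± 0.12) and the secreted scavenger protein Cd5l (0.94 ± 0.18). The median of the scavenger list ran from 0.13 to 0.64 over the 6 pairs and from 0.20 to 0.61 over alternative fits. Cd300lf was the 1 called of 7 CD300 receptors (1.40 ± 0.20), whose median change was 0.01.

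Pattern receptors followed. Of 12 genes of Toll-like receptors and their partners 4 rose and 0 fell, with a median of 0.54: Tlr1 (1.09 ± 0.14), which senses lipopeptides with Tlr2, the endosomal RNA receptors Tlr7 (0.65 ± 0.09) and Tlr8 (0.86 ± 0.12), and Cd14 (0.52 ± 0.12), the lipopolysaccharide co-receptor. Tlr1 went from 10.7 to 14.7 CPM without tumor material to 16.0 to 33.0 CPM with it, with no overlap. Few inflammatory cytokines were called. Of 17 tested cytokine and NF-kB feedback genes, 17 had a positive estimate over all libraries but 1 was called. Within numbers 957, 958 and 016 the medians of the list were 0.53, 0.70 and -0.03, with 16, 16 and 7 genes positive. The called gene was Il18bp, the decoy that binds interleukin-18 (2.22 ± 0.31). It ran from 6.86 to 53.3 CPM without and from 25.2 to 193 CPM with tumor material. Tnf had 25.4 to 53.2 CPM without and 31.8 to 55.1 CPM with it, a difference of 0.34 ± 0.12 that did not pass (edgeR adjusted p = 0.219). Il1b reached at most 0.266 CPM without and 1.48 CPM with tumor material, and Arg1 at most 0.421 and 1.95 CPM.

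Among 20 chemokine genes and receptors 3 rose, among them the monocyte receptor Ccr2 (1.62 ± 0.32) and the membrane-bound chemokine Cxcl16 (0.41 ± 0.07). Ccl2, the ligand of Ccr2, was higher in 6 of 6 pairs but missed the threshold (1.19 ± 0.31, edgeR adjusted p = 0.0752). Its level differed more between the numbers than between the arms: 1.28 to 21.0 CPM in the 8 libraries of 957 and 958, and 193.5 to 351.8 CPM in the 4 libraries of 016. Of 11 alternative-activation genes, Tgm2, a transglutaminase, rose by 1.02 ± 0.08 (edgeR adjusted p = 8.75e-05) and Egr2 fell by 0.70 on the log2 scale. Tgm2 was at 66.6 to 123 CPM without and 147 to 237 CPM with tumor material, without overlap. The costimulatory ligand Cd86 (0.92 ± 0.21) and Lgals9, galectin-9 (0.99 ± 0.18), rose among 11 costimulatory and checkpoint genes. Cd86 lost its call in 14 of 25 alternative fits. The effect on Lgals9 differed between numbers (edgeR adjusted p = 0.0364 for the interaction described below), with 1.32, 1.42 and 0.22 within 957, 958 and 016.

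Of 39 tested interferon-induced genes 18 rose and 0 fell, with a median of 1.53, and all 39 estimates were positive. The estimates differed between the numbers. The median change of the list was 2.19 in number 957, 2.32 in 958 and 0.00 in 016. In both pairs of 957 and both of 958, 39 of 39 members were higher in the tumor library, while in 016 the tumor library was higher for 17 of 39 (Tumor without Myelin over Control) and 28 of 39 (Full Tumor over Myelin Alone). Leaving out number 016 raised the count to 38 called of the list, and leaving out 957 or 958 brought it to 0. Each single library of 957 or 958 left out brought it to 4 to 8, fewest without Control 957, and without Control 016, Full Tumor 016 or Tumor without Myelin 016 it was 31, 29 or 27.

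The tumor effect within a number rests on a single pair without myelin and a single pair with it. The difference between numbers was tested for every gene as an interaction of tumor material with the number. It was called for 55 genes (0.410%, edgeR adjusted p below 0.05, 1323 at an unadjusted p under 0.05). Of these, 22 belonged to the interferon list and 5 to the lists of interferon-gamma GTPases and MHC class I genes. The lowest change was in number 016 for 48 of the 55, and the highest was there for 6. Median changes of the 55 genes were 1.53, 1.66 and -0.10 in 957, 958 and 016, and 20 of them were also among the 228 that rose overall. The remaining 208 genes that rose had medians of 0.62, 0.70 and 0.69, and 102 that fell had -0.47, -0.52 and -0.55. These medians are a description only. The genes were called on the pooled effect in the same libraries, and those called for a difference were set aside, which favors alike medians.

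Irf7 (ENSMUSG00000025498; chr7:141262706-141266481), the master regulator of interferon genes and itself induced by interferon, shows the split. In number 957 it was at 33.6 and 22.4 CPM in Control and Myelin Alone and at 397.6 and 376.9 CPM in Tumor without Myelin and Full Tumor. In 958 the same 4 values were 29.4, 19.0, 518.1 and 385.1 CPM. In 016 they were 36.3, 14.5, 30.0 and 16.4 CPM. The 4 tumor libraries of 957 and 958 lay far above every other library, and those of 016 lay among the libraries without tumor material. Its changes were 3.84, 4.25 and -0.10, and the difference between numbers had an edgeR adjusted p of 0.000396.

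Oas1a, a sensor of double-stranded RNA, gave 1.65, 1.63 and -0.55 within the 3 numbers (edgeR adjusted p = 0.000396). Lgals3bp, a secreted galectin-binding glycoprotein, gave 1.39, 1.66 and 0.03 (edgeR adjusted p = 0.000396). Rnf213, a ubiquitin ligase, gave 2.02, 2.22 and -0.43 (edgeR adjusted p = 0.00186), and Usp18, which removes ISG15 and dampens interferon signaling, 3.26, 3.10 and -1.09 (edgeR adjusted p = 0.00192). Usp18 was also higher in the Control library of 016 (52.1 CPM) than in those of 957 (11.4 CPM) and 958 (9.05 CPM). The interferon list as a whole had a median level of 30.59 CPM in Control 016 against 17.25 and 17.72 CPM in the other Controls, and 15.24 CPM in Myelin Alone 016 against 15.91 and 14.23 CPM. With the Control library of 016 left out, 20 genes were called for a difference between numbers in place of 55. With other single libraries left out, the count was 6 (Full Tumor 016), 8 (Tumor without Myelin 016), 28 (Full Tumor 957) and 36 (Tumor without Myelin 957).

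**Figure D3:**
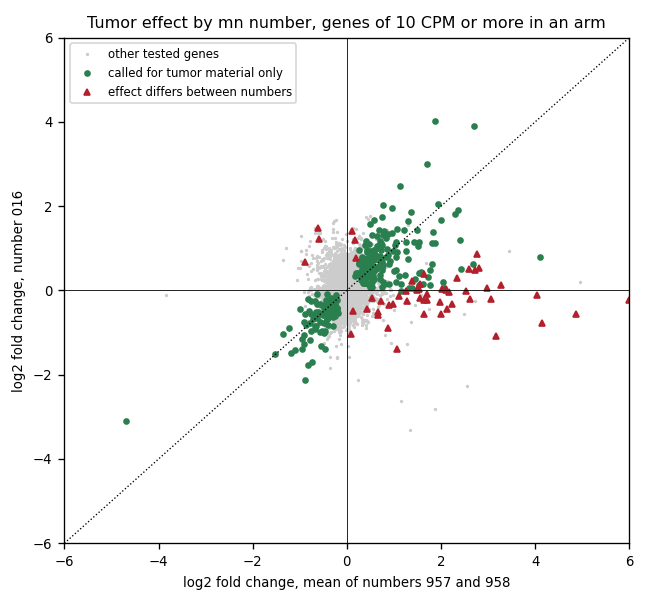
Log2 fold change with tumor material in number 016 (vertical) against the mean of numbers 957 and 958 (horizontal) for 8392 tested genes with a mean of at least 10 CPM in an arm; 1 gene lies outside the axes and the dotted line marks equal changes. Green points are 286 genes called for tumor material only, which lie along the dotted line, as their selection favors. Red triangles are 54 genes whose effect differs between numbers, most of which lie near 0 on the vertical axis.

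Some interferon genes had positive changes within all 3 numbers. Ifit2, an RNA-binding antiviral protein, had a change of 3.02 ± 0.59 overall and 3.82, 4.37 and 0.79 within numbers. Gbp9, an interferon-gamma induced GTPase, changed by 1.90 ± 0.23 with 1.89, 2.12 and 1.68 within numbers, and its arms did not overlap. Together with Igtp (0.78 ± 0.19) and Irgm2 (1.14 ± 0.25) it made 3 calls of 9 in that list. With any 1 library of 957 or 958 left out, 1 of the 9 was called. MHC class I and immunoproteasome genes had 0 calls of 15 and medians of 0.40, 0.59 and -0.25 within numbers, and 4 of them (H2-K1, H2-D1, H2-T23 and B2m) differed between numbers. MHC class II genes had 0 calls of 8; Cd74, the invariant chain, gave 0.40 ± 0.14 (edgeR adjusted p = 0.208).

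**Figure D4:**
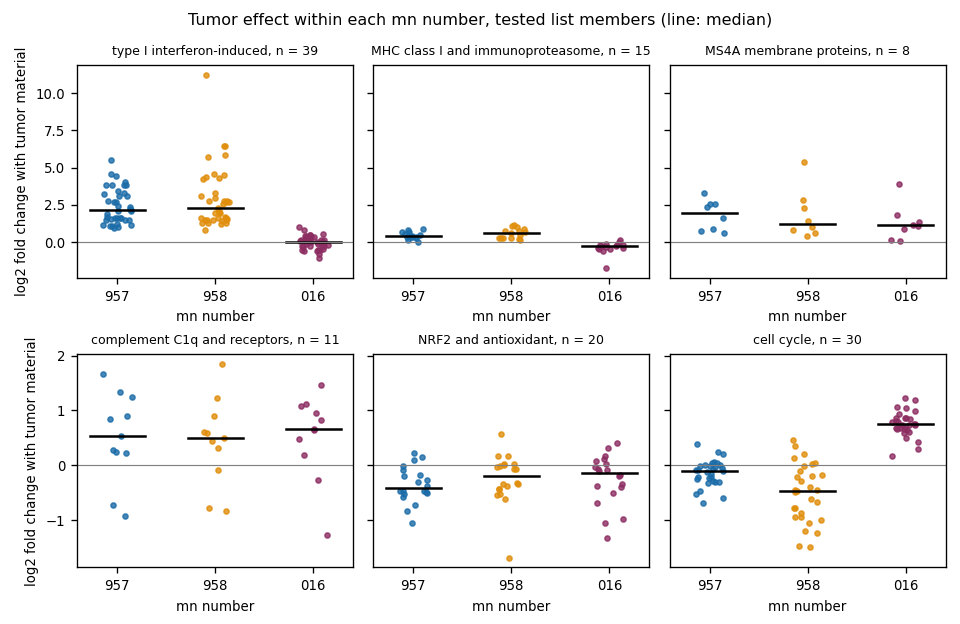
Log2 fold change with tumor material within each mn number for the tested members of 6 gene lists, 1 point per gene and a bar at the median, with a shared vertical axis within each row. Interferon-induced and MHC class I genes lie above 0 in 957 and 958 but around or below 0 in 016, the medians of MS4A and complement genes lie above 0 and those of NRF2 genes below 0 in all 3, and all 30 cell cycle genes lie above 0 in 016.

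Promoters of the number-dependent genes were examined because most of the group moved together. RefSeq windows (GRCm38.p6, the same build as mm10) were at hand for 40 of the 55, and the 250 bases before the start site were searched on both strands for GAAANNGAAA, the core of the ISRE, with overlapping matches counted as 1 gene. The letters stood in 16 of 40 windows (40%) of number-dependent genes, in 14 of 28 (50%) of the interferon list, in 18 of 157 (11.5%) of the other genes that rose, in 0 of 7 of the MS4A genes, and in 337 of 9824 (3.43%) of all tested genes with a window. The windows of the 4 number-dependent genes with the smallest p that hold the letters are printed with the match in capitals, and that of Ms4a6b is printed beside them because its change was positive in all numbers and its window holds none. In order they are Oas1a (chr5:120907526-120907775, minus strand), Ifit3 (chr19:34583279-34583528, plus strand), H2-T23 (chr17:36032702-36032951, minus strand), Trim30a (chr7:104465194-104465443, minus strand) and Ms4a6b (chr19:11518309-11518558, plus strand), each read toward the start site. The Ms4a6b window lies inside the span that the deposited table gives for the gene, since RefSeq places this start further in.
Oas1a: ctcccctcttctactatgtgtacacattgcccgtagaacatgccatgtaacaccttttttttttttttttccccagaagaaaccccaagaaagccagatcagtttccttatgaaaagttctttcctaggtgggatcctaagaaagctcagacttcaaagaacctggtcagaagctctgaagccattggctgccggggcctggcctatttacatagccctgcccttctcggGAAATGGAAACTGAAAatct
Ifit3: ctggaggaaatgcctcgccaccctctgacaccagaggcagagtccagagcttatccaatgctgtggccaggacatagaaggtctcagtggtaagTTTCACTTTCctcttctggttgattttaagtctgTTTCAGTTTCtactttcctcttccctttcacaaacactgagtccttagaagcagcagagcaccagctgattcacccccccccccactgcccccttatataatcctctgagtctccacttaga
H2-T23: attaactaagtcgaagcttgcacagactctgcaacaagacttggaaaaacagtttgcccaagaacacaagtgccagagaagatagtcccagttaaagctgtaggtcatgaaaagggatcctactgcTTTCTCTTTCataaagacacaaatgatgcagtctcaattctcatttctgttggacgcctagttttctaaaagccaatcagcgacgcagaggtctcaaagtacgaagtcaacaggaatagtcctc
Trim30a: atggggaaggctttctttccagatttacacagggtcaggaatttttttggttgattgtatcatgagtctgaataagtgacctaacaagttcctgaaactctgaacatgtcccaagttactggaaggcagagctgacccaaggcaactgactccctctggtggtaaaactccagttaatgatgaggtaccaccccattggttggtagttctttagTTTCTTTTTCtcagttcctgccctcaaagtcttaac
Ms4a6b: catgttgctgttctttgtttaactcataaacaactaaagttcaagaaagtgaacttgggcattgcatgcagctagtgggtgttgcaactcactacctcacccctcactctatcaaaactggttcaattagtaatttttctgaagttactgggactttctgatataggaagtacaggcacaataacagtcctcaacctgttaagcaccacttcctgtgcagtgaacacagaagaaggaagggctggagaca
A match describes letters in the window and is not a measured binding site. Trim30a, which limits inflammatory signaling, gave changes of 1.52, 1.60 and 0.15 within the numbers, beside 2.33, 2.27 and 1.81 for Ms4a6b.

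Of 20 tested NRF2 and antioxidant genes 6 fell and 0 rose, 17 had a negative estimate, and the median was -0.26 against -0.002 over all genes. Nqo1 (ENSMUSG00000003849), a quinone reductase, ran from 17.2 to 54.5 CPM (median 26.9) without tumor material and was at 12.6 and 13.5 (957), 5.42 and 5.76 (958) and 20.9 and 22.4 CPM (016) with it. The tumor libraries of 016 overlapped with the 958 libraries without tumor material, and Nqo1 was lower in 6 of 6 pairs with a change of -1.24 ± 0.16 (edgeR adjusted p = 0.00137). Gstm1, a glutathione transferase, was at 865 to 1040 CPM without and 433 to 792 CPM with tumor material, with no overlap and a change of -0.65 ± 0.10. The others were Gsta3 (-0.71 ± 0.13), sulfiredoxin, Srxn1 (-0.47 ± 0.08), catalase, Cat (-0.45 ± 0.09), and peroxiredoxin 1, Prdx1 (-0.29 ± 0.05). Hmox1, heme oxygenase and also an NRF2 target, was at 1120 to 2380 CPM without and 1070 to 2470 CPM with tumor material, a difference of -0.14 ± 0.13 that did not pass (edgeR adjusted p = 0.747).

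Atf4, a transcription factor of the amino-acid stress response, fell (-0.44 ± 0.09). The list of its known targets was put together after the values were seen and is given as a description. Of 29 tested targets 8 were called lower and 0 higher. Of the 30 genes with Atf4 itself, 28 had a negative estimate, and the median was -0.38, with -0.38, -0.33 and -0.40 within the numbers. Trib3, a pseudokinase induced by ATF4, ran from 17.8 to 58.0 CPM (median 34.4) without tumor material and from 10.6 to 21.4 CPM (median 17.2) with it. Its change was -1.06 ± 0.19, lower in 6 of 6 pairs. The serine and one-carbon enzymes Phgdh (-1.03 ± 0.18) and Mthfd2 (-0.57 ± 0.08) fell, as did asparagine synthetase, Asns (-0.71 ± 0.12), the glutathione-degrading Chac1 (-1.02 ± 0.21), Atf5 (-0.96 ± 0.20) and the tRNA synthetases Cars (-0.37 ± 0.08) and Sars (-0.35 ± 0.07).

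The 250 bases upstream were searched in the same way for the NRF2 letters TGACNNNGC and for TGATGNAA, letters of the ATF4-binding composite element. The first stood in 7 of 17 windows of the NRF2 list (41.2%) against 1384 of 9824 of all tested genes (14.1%), and the second in 7 of 25 of the ATF4 list (28%) against 249 of 9824 (2.53%). Among called members with the letters and the smallest p are Prdx1 (chr4:116685349-116685598, plus strand) for the first and Asns (chr6:7693210-7693459, minus strand) and Chac1 (chr2:119350992-119351241, plus strand) for the second, shown because these genes fell.
Prdx1: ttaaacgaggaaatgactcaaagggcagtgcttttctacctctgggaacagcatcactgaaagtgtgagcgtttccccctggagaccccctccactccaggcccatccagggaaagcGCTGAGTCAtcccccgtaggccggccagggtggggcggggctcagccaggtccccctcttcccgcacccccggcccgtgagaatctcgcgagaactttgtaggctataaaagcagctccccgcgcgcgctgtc
Asns: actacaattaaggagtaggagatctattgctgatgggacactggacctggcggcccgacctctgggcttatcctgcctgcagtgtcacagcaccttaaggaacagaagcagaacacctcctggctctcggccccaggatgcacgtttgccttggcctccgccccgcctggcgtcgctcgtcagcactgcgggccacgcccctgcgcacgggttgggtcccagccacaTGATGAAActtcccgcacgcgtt
Chac1: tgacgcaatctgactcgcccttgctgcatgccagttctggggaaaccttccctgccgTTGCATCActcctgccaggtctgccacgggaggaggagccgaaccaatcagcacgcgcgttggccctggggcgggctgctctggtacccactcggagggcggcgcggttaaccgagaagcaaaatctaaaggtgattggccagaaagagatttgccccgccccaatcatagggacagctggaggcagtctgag
Capitals mark the matches. The NRF2 letters also stood in windows of Gsta3, which fell, and of G6pdx, Gclm, Mgst1, Nfe2l2 and Txnrd1, which were not called. The ATF4 letters also stood in windows of Aars, Gars, Pycr1, Slc7a11 and Vldlr, which were not called. Among the 102 genes that fell, 16 of 81 windows held the NRF2 letters (19.8%) and 4 of 81 the ATF4 letters (4.94%). Among the 228 genes that rose, 28 of 170 windows held the NRF2 letters (16.5%) and 17 of 170 the ATF4 letters (10%).

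While these fell, chaperones of the endoplasmic reticulum rose. Of 18 heat shock and chaperone genes 4 rose, all residents of that compartment: Hspa5, or BiP (0.63 ± 0.10), Calr, calreticulin (0.50 ± 0.06), Hsp90b1 (0.55 ± 0.08) and the disulfide isomerase Pdia4 (0.47 ± 0.10). Atf4 was the 1 that fell in that list. Calr was at 298 to 431 CPM without and 433 to 638 CPM with tumor material, with no overlap, and was higher in 6 of 6 pairs.

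Other genes that fell most were Serpinb9b (ENSMUSG00000021403; chr13:33027416-33041884), a serine protease inhibitor of clade B, with 53.7 to 241 CPM (median 126) without and 18.8 to 107 CPM (median 34.8) with tumor material. It fell by 1.52 on the log2 scale (SE 0.13) and was lower in 6 of 6 pairs. In its list of 15 coagulation and serpin genes 4 fell and 0 rose: Serpinb9 (-0.58 ± 0.12), coagulation factor F10 (-1.09 ± 0.20), Procr, the protein C receptor (-0.76 ± 0.09), and Serpinb9b. Lat (-1.29 ± 0.19), an adaptor of receptor signaling, the cell-cycle inhibitor Cdkn1c (-1.28 ± 0.27), Mgst2 (-1.21 ± 0.19), a microsomal glutathione transferase, the deiodinase Dio2 (-1.14 ± 0.24) and Rassf8 (-0.91 ± 0.17) also fell in all pairs. Among genes that rose most, Nr4a1, an orphan nuclear receptor, gave 2.07 ± 0.28 and the integrin Itga9 2.32 ± 0.40. Of 21 immediate early genes, Ier3 (1.05 ± 0.23) and Zfp36 (0.66 ± 0.08), a destabilizer of cytokine mRNA, rose beside Nr4a1, and Egr2 fell. Genes of matrix turnover moved both ways: Mmp14 (1.45 ± 0.29), Mmp27 (0.90 ± 0.16) and Timp2 (0.39 ± 0.09) rose, and the macrophage elastase Mmp12 fell from a median of 4320 to 2810 CPM (-0.53 ± 0.07).

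Sterol handling was partly changed. Of 17 LXR targets and efflux genes 4 rose and 0 fell, with a median of 0.18: the exporter Abca1 (1.55 ± 0.34), the lipid transfer protein Pltp (0.87 ± 0.13), Nr1h3, which encodes LXR-alpha (0.64 ± 0.14), and Apoe (0.60 ± 0.10). Abca1 in 957 was at 35.8 CPM in Control and 91.4 CPM in Tumor without Myelin, and at 118.5 CPM in Myelin Alone and 184.0 CPM in Full Tumor. In 016 the same 4 values were 3.73, 73.1, 47.4 and 131.8 CPM, so that it was lowest without both. Abcg1, the partner exporter, differed by 0.12 ± 0.07 (edgeR adjusted p = 0.536). Of 24 cholesterol synthesis genes 0 were called in either direction, with a median of -0.01 for tumor material, where the myelin term of the same model had a median of -0.61. Sqle, squalene epoxidase, gave -0.37 ± 0.10 for tumor material (edgeR adjusted p = 0.075) and was lower in 6 of 6 pairs.

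**Figure D5:**
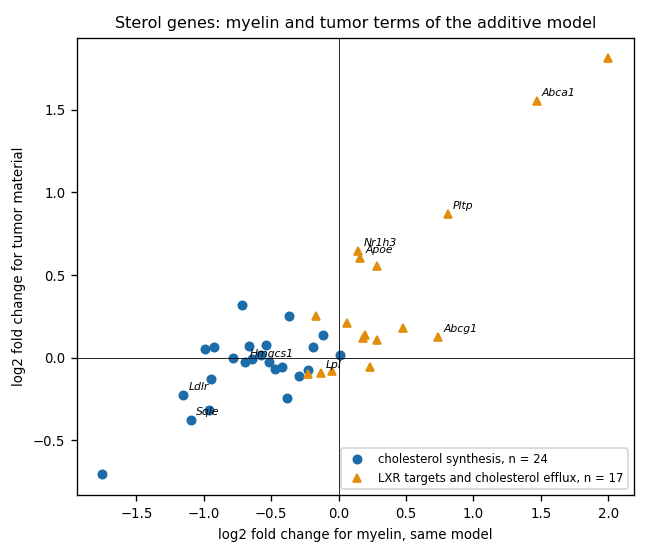
Log2 fold change for tumor material (vertical) against that for myelin (horizontal), both from the additive model, for 24 cholesterol synthesis genes (circles) and 17 LXR targets and efflux genes (triangles). The synthesis genes spread along the horizontal axis near a tumor change of -0.01, and Abca1 and Pltp lie up and to the right.

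Of 18 tested markers of lipid-laden macrophages, Spp1, osteopontin (0.28 ± 0.06), and Ctsl (0.40 ± 0.06) rose, Cd9 fell by 0.22 on the log2 scale and Itgax fell. Gpnmb (0.07 ± 0.06, edgeR adjusted p = 0.722), Trem2 (-0.06 ± 0.05, adjusted p = 0.748 in the same test), Fabp5 (0.15 ± 0.11, adjusted p = 0.619) and Plin2 (0.18 ± 0.04, adjusted p = 0.0582) did not pass. Of 30 lysosome genes 4 rose, among them Ctsh, Ctsl and Grn, and Ctsk fell. Cell cycle genes had 0 calls of 30 and a median of 0.04, made up of -0.10, -0.46 and 0.75 within 957, 958 and 016. Mki67, the proliferation marker, was at 14.8 to 61.3 CPM without and 16.4 to 118 CPM with tumor material. Of the 30 genes, 0 were called for a difference between numbers. Ncapd3, Cdca3 and Ccnf, genes of cell division outside this list, were called for such a difference. Within 957, 958 and 016 Ncapd3 gave -0.98, -0.19 and 1.23, and Cdca3 gave -0.94, -0.85 and 0.69. Ccnf gave 0.96, -0.58 and 0.78.

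Of 15 heme and iron genes Hfe (0.56 ± 0.09), the hemochromatosis protein, and Trf, transferrin (0.42 ± 0.07), rose, and of 24 hypoxia and glycolysis genes Ndrg1 (-0.66 ± 0.10) and aldolase, Aldoa (-0.19 ± 0.04), fell. Tgfbi, a matrix protein induced by TGF-beta (0.59 ± 0.09), rose among 14 growth and angiogenic genes. Of 20 lineage factors and markers 4 rose, among them Adgre1, which encodes F4/80 (0.38 ± 0.08), Cd14 and Nr1h3, and Tfec fell by 0.80 on the log2 scale. Mitochondrially encoded genes had 0 calls of 11, with medians of 0.21, 0.00 and 0.57 within 957, 958 and 016 and 11 of 11 higher in 016, where Control had the lowest mitochondrial share of counts (0.287%). Their part in the differences between numbers was not tested. Of 18 housekeeping genes Actb rose by 0.23 ± 0.05, a call lost in 17 of 25 alternative fits.

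Leaving out whole numbers changed the counts within lists. With single libraries left out the ATF4 list, Atf4 included, had 4 to 9 calls, the LXR list 2 to 4 and the scavenger list 3 to 7. Calls without 957, 958 and 016 in turn were 3, 4 and 7 higher for complement, 2, 2 and 6 for scavenger receptors, 1, 1 and 5 for LXR targets and 3, 1 and 3 for chaperones. For genes that fell they were 2, 1 and 9 in the NRF2 list, 3, 2 and 3 in the serpin list and 3, 1 and 1 in the ATF4 list. Without the number in the model, NRF2, ATF4, serpin, LXR, scavenger and interferon lists had 0 calls each and the MS4A and complement lists 1 each. DESeq2 called 31 interferon-induced genes higher.

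The tumor effect was also compared with and without myelin. No gene was called for a difference (0 of 13414, 0.00%, edgeR, 393 at an unadjusted p under 0.05 and a smallest adjusted p of 0.9998). Among genes with a mean of at least 10 CPM in an arm, those with the smallest p were Ccl6, at 0.02 without and 0.68 with myelin, Wdr11, Nsmaf, Dnajc16 and Mmp13. The called genes had median changes of 0.83 without and 0.68 with myelin among those that rose, and of -0.58 and -0.47 among those that fell. With 3 pairs in each state, a count of 0 does not show that the effects are alike.

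Markers of other cells moved with tumor material in part, and their part in the results was not tested. In bulk RNA fewer cells of a type and less RNA per cell cannot be told apart. Of 11 tested microglia markers 3 rose, among them Fcrls (2.13 ± 0.32) and Olfml3 (0.49 ± 0.10). The summed level was 2330 to 3160 CPM without and 2690 to 3530 CPM with tumor material. That sum was higher with tumor material in 6 of 6 pairs, and Trem2 alone, which macrophages also express, was at 1420 to 2390 CPM. Tmem119, a defining microglia marker, was at 0.604 to 5.99 CPM without and 1.95 to 28.4 CPM with tumor material and higher in 6 of 6 pairs, but its change of 1.67 ± 0.41 did not pass (edgeR adjusted p = 0.0578; it passed in 6 of 25 alternative fits). P2ry12 stayed at or below 3.58 CPM. The proteoglycan Ncan, of the 18 tumor and glial progenitor markers, was the 1 called, and it counts among the 228 genes that rose. Ncan was listed at 0 counts in the 6 libraries without tumor material and in both of 957 with it. In the tumor libraries of 958 and 016 it was at 1.43, 0.228, 8.74 and 6.75 CPM (Tumor without Myelin first). A count of 0 allows up to 3 counts, or 0.138 to 0.176 CPM by library, for counting error only. The summed level of that list was 1490 to 1890 CPM without and 1360 to 1810 CPM with tumor material. Most of it came from Vim (767 to 1290 CPM) and Cd44 (441 to 600 CPM), which macrophages also express, and Olig2 stayed at or below 0.0607 CPM. Bcan, Ptprz1 and Gpm6a of the same list were at 0 counts in the 6 libraries without tumor material and reached 0.614, 0.971 and 0.661 CPM with it. Neutrophil markers summed to 112 to 549 CPM without and 159 to 235 CPM with tumor material, and the 12 tested had median changes of 0.61, 0.25 and -2.46 within 957, 958 and 016. Mpo, a neutrophil granule gene, fell, with a highest level of 111 CPM without tumor material, in Control 016, and 10.6 CPM with it. In the libraries of 957 and 958 Mpo stayed at or below 1.1 CPM, so its fall rests on 016. B cell markers, summing to 22.6 to 64.0 CPM without and 9.24 to 57.9 CPM with tumor material, were lower in 6 of 6 pairs. So was the sum of endothelial and mural markers, at 70.0 to 97.1 and 60.9 to 77.8 CPM. Much of that sum was Vwf (19.1 to 49.7 CPM), which fell by 0.69 on the log2 scale. Of the 8 tested members 5 had a positive estimate, and the median was 0.22. Oligodendrocyte markers summed to 111 to 136 CPM and 127 to 161 CPM, and Cnp rose (0.44 ± 0.10). The T and NK list summed to 518 to 853 CPM and 490 to 785 CPM, nearly all of it Il7r (484 to 845 CPM), while Lck stayed at or below 4.12 CPM and Cd4 at or below 7.93 CPM. Astrocyte markers summed to 205 to 289 and 157 to 303 CPM, and monocyte markers to 34.8 to 168 and 38.0 to 157 CPM. Neuron, dendritic cell, fibroblast, mast cell and erythroid lists each summed to at most 21.6 CPM in any library.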

How the data were processed

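Messenger RNA was measured in 12 libraries of sorted mouse macrophages. The authors deposited unnormalized counts for each gene. Per the labels' protocols, template-switching cDNA synthesis started from oligo-dT. Coordinates are on mm10, per the submitters' processing notes. How reads were aligned, counted and assigned to strands is not given in the sources used here. Reads of overlapping, antisense and near-identical genes may therefore be mixed. All 12 value columns matched a sample.

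CPM, fold changes and tests were computed from the deposited counts in R 4.3.3 with edgeR 4.0.16. Genes were kept by filterByExpr on the 4 groups (13414 genes with 99.9% of the counts), scaled by TMM (factors 0.965 to 1.06) and fitted with glmQLFit and glmQLFTest on terms for mn number, myelin and tumor material, with 7 residual degrees of freedom. P-values are two-sided and adjusted by Benjamini-Hochberg over all tested genes. SE was taken from the size of the fold change (log2) divided by the root of F. Totals of at least 17071673 counts set the depth, so a count of 0 allows at most 0.176 CPM. The mn number pairs the libraries: deviations from the group means correlated above 0.1 in 18 of 18 same-numbered pairs (0.120 to 0.631, across genes). No 2 libraries of a group were alike within sampling noise (chi-square per degree of freedom 23.9 to 142). The procedure was tested on simulated data in which the tumor effect on a gene was the same in all numbers. Effects that differ between numbers were not covered.

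Members, gene lists and tests were chosen with earlier results of these data known, and the ATF4 list after its values were seen. Genes named were the 12 highest and 12 lowest called genes of at least 10 CPM with the same direction in 6 pairs, called members and the 4 smallest p of each list, 18 well-known macrophage genes, and the 5 smallest p of each interaction test among genes of at least 10 CPM. Alternatives covered the number and myelin terms, DESeq2 1.42.0 and limma-voom (limma 3.58.1), scaling, filters, and leaving out libraries or numbers. A few genes among the list members are not reported here.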

Additional observations from a re-analysis of the deposited data

Results flagged for a closer look

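The tumor effect differed between mn numbers in 55 genes by edgeR's test of the interaction. The smallest adjusted p among genes of at least 10 CPM were 0.000396 for Irf7, 0.000396 for Oas1a, 0.000396 for Lgals3bp, 0.00186 for Rnf213 and 0.00192 for Usp18. Their changes lay between 1.39 (Lgals3bp) and 4.25 (Irf7) in numbers 957 and 958, and between -1.09 (Usp18) and 0.03 (Lgals3bp) in 016.

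In 2 of 48 tested groups of 6 libraries, 1 library stood away from the rest, where chance gives about 1 in 20 groups. Ifit2 was at 22.6 CPM in Control 016, with the next highest library without tumor material at 5.378 CPM. Gm36161 was at 4.577 CPM in Myelin Alone 958, with the next at 2.03 CPM.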

How the results depend on the processing

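No called gene that was tested changed direction in the 25 alternative fits. The counts moved more: with no replicate block, that is without the mn number, 18 genes rose and 1 fell, against 228 and 102 with it, and 84 genes differed between numbers, against 55. DESeq2 called 461 higher and 237 lower. Leaving out single libraries or numbers gave 48 to 251 higher and 8 to 134 lower, fewest without the 4 libraries of 958. Library totals in place of TMM gave 199 higher and 134 lower, with 59.8% of calls higher in place of 69.1%. Differences between numbers numbered 178 with no filter on low counts and 6 to 57 with single libraries left out, a setting added after the data were seen. The difference with and without myelin stayed at 0 calls in every fit run. The cause of these shifts was not tested. Of 122 called genes examined, 112 lost their call with no replicate block, 85 without 957, 94 without 958 and 27 without 016.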
